A study of Mus musculus and Bos taurus with 2 samples.

Results

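Ribosome biogenesis and nucleolar genes encode the factors that transcribe ribosomal RNA, modify and cut it, and assemble it into ribosomal subunits. A list of 50 such genes was followed in 2 nanopore long-read libraries, and a transcript model counted for a gene when its gene name equalled the member's, ignoring case, and its comparison class placed it on the gene's own strand. All 50 members had such sense models in each library. In mouse 53.5% of 21900 RefSeq protein-coding genes had one, and no such share was available in bovine. Members were chosen with earlier results of these data known, so their full presence is no result about them. Together the members had 113 models in mouse, where the whole library held 31354 sense models of 14090 named genes, and 107 in bovine, where it held 33163 of 13374 named genes. The mouse library was made 36 h after in vitro fertilization of oocytes from superovulated Slc:ICR females, when embryos had reached the late 2-cell stage. The bovine library was made from in vitro produced bovine embryos of the 8-cell to 16-cell stage, 72 h after insemination of oocytes from Japanese Black or Japanese Black × Holstein F1 cattle with Japanese Black sperm. About 200 embryos were pooled for each library, polyadenylated RNA was copied into cDNA and amplified with 14 PCR cycles, and both libraries carry batch 1. The study asks where transposable elements form part of transcripts when the embryonic genome becomes active, which happens at these stages in these species.

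The nucleolus forms around ribosomal RNA genes. RNA polymerase I makes a long precursor, small nucleolar RNAs (snoRNAs) in complexes with proteins guide its modification, and separate sets of assembly factors then build the small and the large subunit. Oocytes store ribosomes and carry compact nucleolus precursor bodies, and working nucleoli are rebuilt as the embryonic genome is switched on.

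The deposited values are positions of assembled transcript models, with no read counts or abundance, so the depth is unknown and a number of models is not an expression level. With 1 library per species there was no replicate check and no test between them, and species, stage, hours and reference annotation cannot be told apart as sources of a difference. Intervals below are 95% Clopper-Pearson intervals and cover counting error over genes or models only. Of 10 genes listed as markers of the mouse late 2-cell stage, 10 had a model in the mouse library and 0 in the bovine one. Of 7 markers of the bovine 8-cell to 16-cell stage, 3 had one in mouse and 7 in bovine. Of 14 oocyte and early embryo markers, 13 had one in mouse and 14 in bovine. Models were also found for 8 of 14 cumulus and granulosa markers in each library, with none for Amh, Cyp19a1 and Ptx3 in either, for 3 of 8 sperm markers in mouse and 4 of 8 in bovine, and for 4 of 10 blood and immune markers in each. The part of these other cells in the results was not tested. Genes were matched by symbol, and the late 2-cell list is in mouse symbols, so its 0 in bovine cannot be told apart from naming. Likewise ZSCAN4 counted as without a model in mouse, where Zscan4a, Zscan4c and Zscan4d had models. The blood list holds globin symbols of both species, so neither library could reach all 10. These counts are therefore no check of the stage.

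Nearly every member was assembled in a form already in the reference annotation. An exact match, meaning a model with the same chain of introns as a reference transcript, was present for 49 of 50 members in mouse (98%, 89.4% to 99.9%), against 72.5% of all named genes with a sense model. In bovine 49 of 50 members had one (98%, 89.4% to 99.9%), against 65.5% of all named genes. Counted over models, 84 of 113 in mouse were exact matches (74.3%, 65.3% to 82.1%), against 55.4% of all sense models. In bovine 70 of 107 were (65.4%, 55.6% to 74.4%), against 44.0%. Members had longer models than genes in general, with a median spliced length of 2431 bases in mouse, where all sense models had 1972, and 2189 bases in bovine, where all had 1824. Their median exon number was 13 in mouse and 14 in bovine, against 7 in mouse and 6 in bovine over all sense models. How completely the reference covers each gene, and whether a reference guided the assembly, was not tested.

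The coding regions were mostly whole. In mouse, 47 of 50 members (94%, 83.5% to 98.7%) had 1 model that holds the longest coding region of GENCODE M21 with its splicing, against 65.9% of the genes that could be compared. The 3 others were Nop16, Pes1 and Utp20. Nop16 covered 100% of the coding bases with another splicing. Pes1 covered 99.3%, in an exact match of 15 exons that lay 0 bases from the annotated start and end. Utp20, a very large scaffold of the small subunit processome, had 1 mouse model with 24 of its 62 exons, which began 10 bases from the annotated start, ended 45076 bases short of the annotated end and held 34.9% of the coding region. It was the member without an exact match in mouse. The bovine UTP20 had 5 models, among them an exact match of 62 exons and 8672 bases. The member without an exact match in bovine was RRP1, a large subunit factor, with 1 model of 12 exons.

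The number of models per gene was close to that of other genes. Members averaged 2.26 models in mouse (all named genes 2.23) and 2.14 in bovine (all 2.48), and 22 members in mouse and 18 in bovine had a single model. Having 2 or more models was seen for 28 members in mouse (56%, background 51.2%) and 32 in bovine (64%, background 57.9%). Having 5 or more was seen for 5 members in mouse (10%, background 9.96%) and 5 in bovine (10%, background 13%). Between the libraries, the background was all 8466 genes with the same symbol and a sense model in both. More models in mouse were seen for 14 members (28%, background 32.7%) and fewer for 15 (30%, background 39.8%). Equal numbers were seen for 21 members (42%, 28.2% to 56.8%, background 27.6%), and this background lies just below the interval. A surplus of 3 or more in mouse was seen for 3 members (background 9.5%): Nop56 with 7 mouse models and 1 bovine model, Polr1b with 5 in mouse and 2 in bovine, and Ubtf with 8 in mouse and 5 in bovine. A deficit of 3 or more was seen for 2 members (background 13%): Npm1 with 3 mouse models and 6 bovine models, and Utp20 with 1 in mouse and 5 in bovine.

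**Figure D1:**
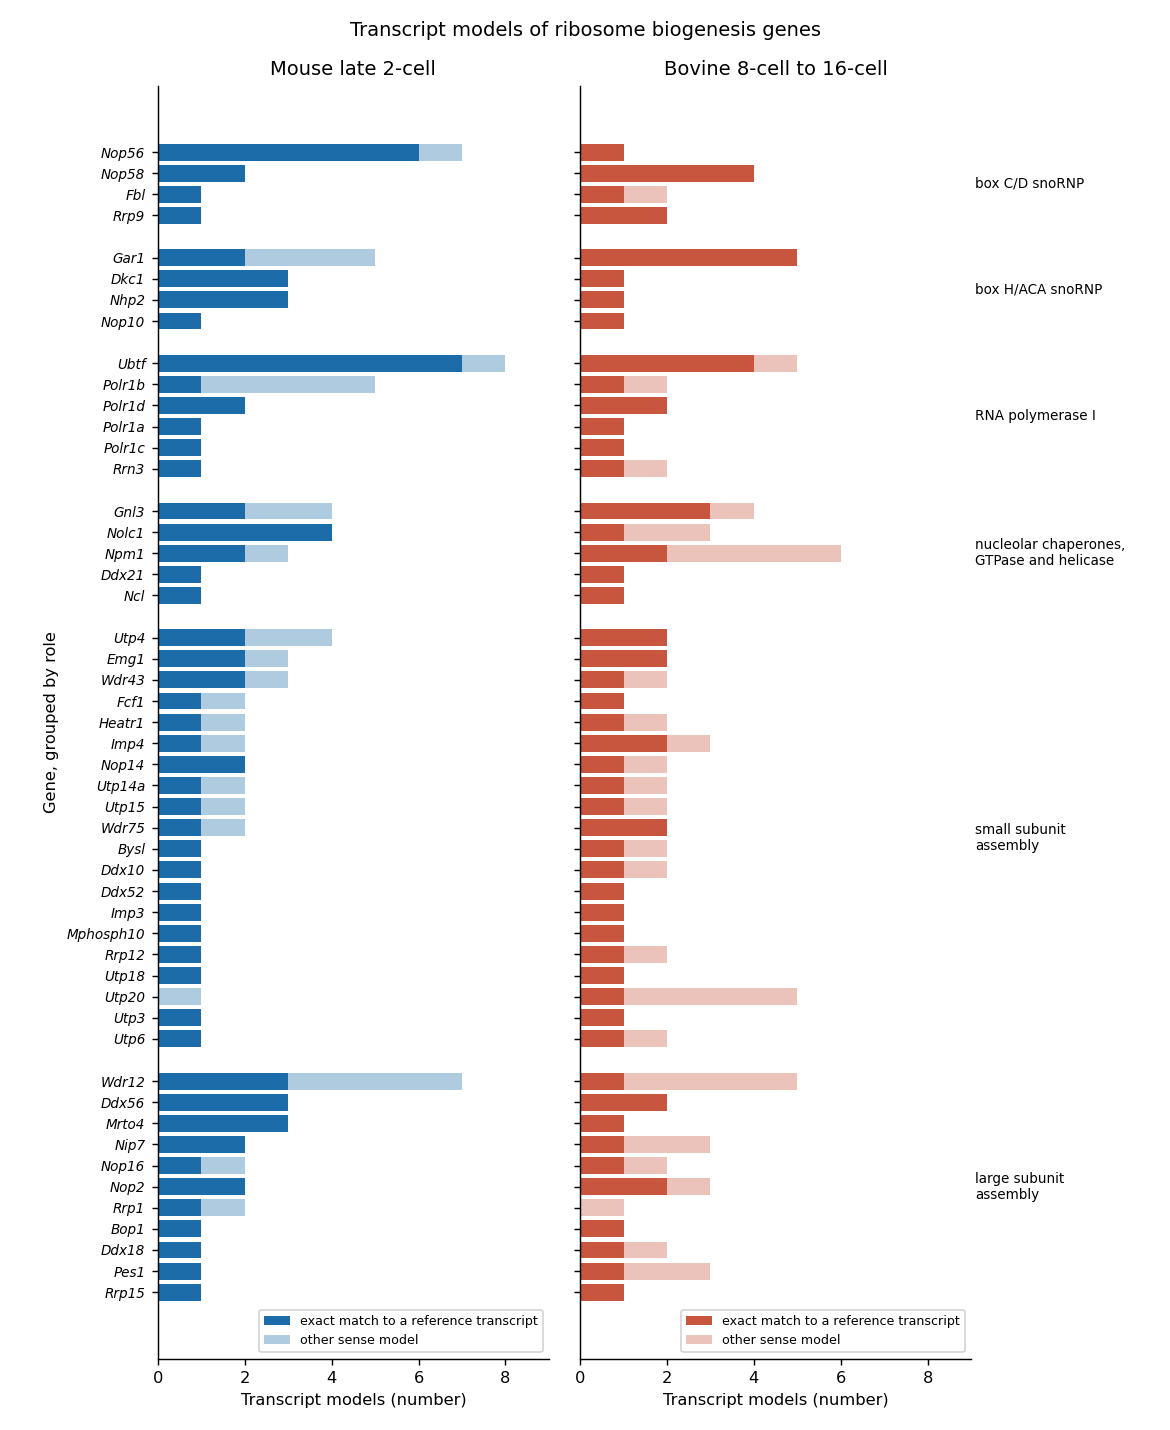
Number of transcript models of each of the 50 genes (horizontal axis) in the mouse library (left) and the bovine library (right), grouped by role. Dark bars are exact matches and light bars other sense models. Mouse Ubtf reaches 8 models, and mouse Utp20 and bovine RRP1 have no dark bar.

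**Figure D2:**
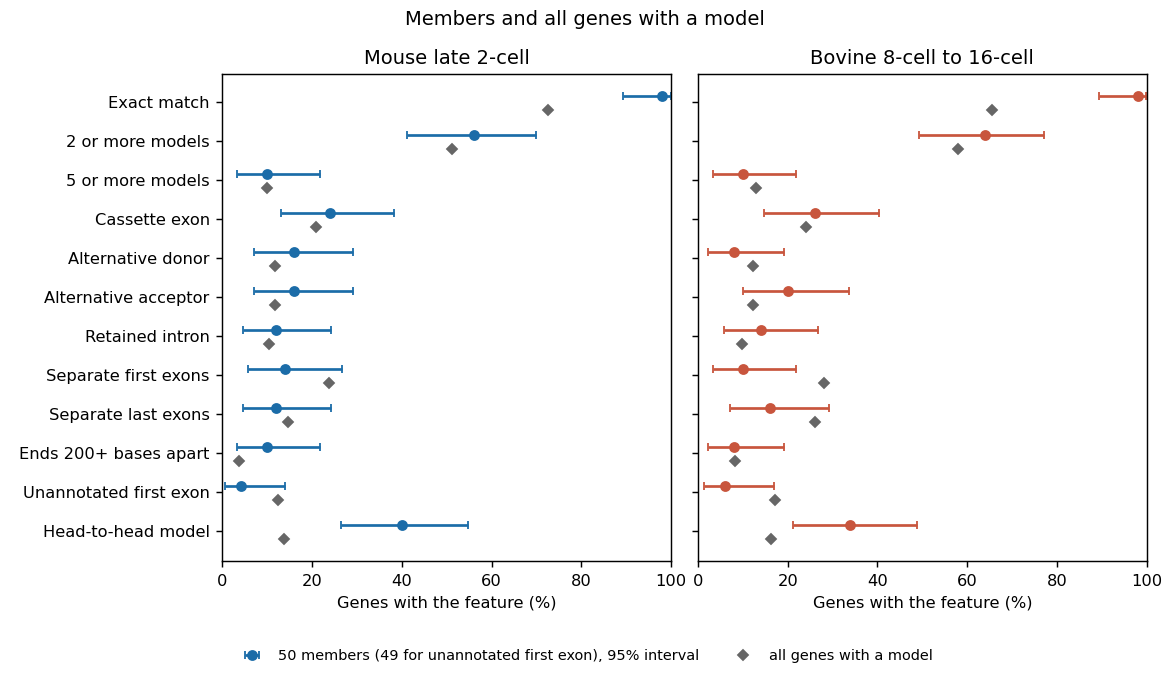
Share of members with each feature (circles, with 95% Clopper-Pearson intervals) and share of all named genes with a model (diamonds), mouse left and bovine right; for the unannotated first exon both are taken over genes with an exact match. Circles stand far from diamonds for exact matches (98% against 72.5% in mouse and 65.5% in bovine) and for head-to-head models (40% against 13.7% in mouse, 34% against 16.3% in bovine).

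RNA polymerase I and its factors had 18 models in mouse and 13 in bovine over 6 genes. Polr1a, the largest subunit, and Polr1c, a subunit shared with RNA polymerase III, had 1 model in each library. Rrn3, which brings the polymerase to the promoter, had 1 model in mouse and 2 in bovine, and Polr1d, another subunit shared with RNA polymerase III, had 2 in each. The remaining models belonged to Polr1b, the second largest subunit, and to Ubtf, which encodes the upstream binding factor UBF that coats active ribosomal RNA genes.

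Ubtf showed a cassette exon that both species shared. The mouse gene (minus strand, chromosome 11, 102304560 to 102319592, mm10) had 8 models and the bovine gene (minus strand, chromosome 19, 44022195 to 44037897, bosTau9) had 5. In each, exon 8 of 21 was a cassette of 111 bases, a multiple of 3 that leaves the reading frame intact. It was present in 6 mouse models and skipped in 2, and present in 2 bovine models and skipped in 3. UBF is known in a long and a short form, UBF1 and UBF2, and the short one lacks part of the second of its DNA-binding HMG boxes through skipping of an exon. Among all cassette exons of members, this was the only one found at the same length in both libraries. The mouse exon lies wholly in the coding region, and its 111 bases, at chr11:102310926-102311036 on the minus strand (GENCODE M21 transcripts, GRCm38, the assembly also named mm10), are shown because they are the piece that is kept or skipped.
Ubtf exon 8: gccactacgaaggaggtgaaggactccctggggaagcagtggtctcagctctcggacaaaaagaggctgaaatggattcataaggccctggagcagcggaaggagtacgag

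Ubtf also varied at both of its ends. Mouse models used 5 separate first exons and bovine models 3, and 7 of the 8 mouse models and 4 of the 5 bovine models were exact matches. An exact match shares the introns of a reference transcript and need not share its start. Mouse model ends fell into a group with last exons of 2207 bases (5 models) and a group with 776 or 777 bases (3 models), with 1431 bases between the outermost and innermost end. The bovine ends were arranged in the same way, with 1 last exon of 2269 bases and 4 of 738 or 762 bases, and 1531 bases between the outermost and innermost end. Both mouse models without exon 8 had the long end, and all 3 bovine models without it had the short end. A mouse model also skipped exon 2, of 125 bases, and that model was the 1 that was not an exact match.

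**Figure D3:**
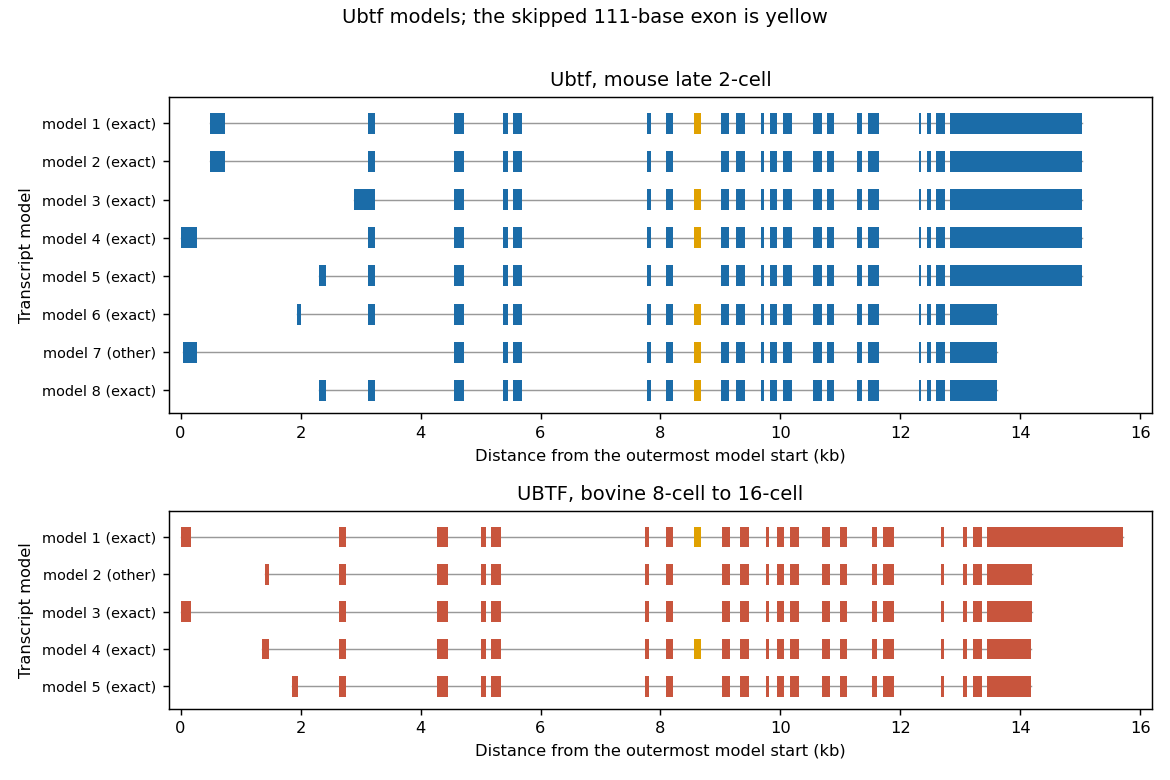
Exons (boxes) of the 8 mouse Ubtf models (top) and the 5 bovine UBTF models (bottom), by distance in kb from the outermost model start. The 111-base exon 8 (yellow) is missing in mouse models 2 and 5 and in bovine models 2, 3 and 5, and the last exon has a long and a short form in both.

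Polr1b had 5 models in mouse (plus strand, chromosome 2, 129100996 to 129126595) and 2 in bovine, with 1 exact match in each library. The mouse models differed by skipping of the 172-base exon 8, by an added 108-base exon in intron 4 and by a first exon of 147 bases at exon 3. A separate last exon of 211 bases, inside intron 14, closed 1 mouse model of 15 exons. The extra bovine model began 358 bases upstream of the exact match, in a 315-base first exon that overlaps no exon of an exact match. Polr1d had the same pair of forms in both species, 1 of 2 exons and 1 of 3. In mouse the last exons were 552 bases (2-exon form) and 714 bases (3-exon form), and in bovine 574 and 1021 bases. The 3-exon form ended 32275 bases beyond the shorter one in mouse and 31270 bases beyond it in bovine, and all 4 models were exact matches.

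Proteins of the box C/D particles, which guide ribose methylation of ribosomal RNA, had 11 models in mouse and 9 in bovine over 4 genes. Fbl, the methyltransferase fibrillarin, had 1 model in mouse and 2 in bovine. Nop58, a core protein of these particles, had 2 in mouse and 4 in bovine. Rrp9, which binds the U3 snoRNA, had 1 in mouse and 2 in bovine. Nop56, the partner of Nop58, had 7 models in mouse and 1 in bovine, an exact match of 12 exons and 1901 bases. In Nop58 the 6 models of both libraries were exact matches. They differed by skipping of the 117-base exon 4 in mouse, and in bovine by skipping of the 53-base exon 3 and the 121-base exon 4, and by 1 model that kept the 195-base intron between them.

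Nop56 had 6 more models in mouse than in bovine. Of its 7 mouse models (plus strand, chromosome 2, 130274367 to 130279313), 6 were exact matches, and 4 of these matched reference transcripts that RefSeq lists as non-coding. The coding exact matches had 2419 and 1895 bases. The gene is a host of snoRNAs: 5 snoRNA genes of GENCODE lie within its introns 3, 5, 8, 9 and 10 of 11. In 3 models, all of them matches to non-coding references, the exon before intron 8 ended 182 bases later. That donor shortened intron 8 to 161 bases, against 343 bases in the other form, and it placed the whole 86-base snoRNA gene Gm23187 inside the exon. The other 4 models kept Gm23187 in an intron, of 343 bases or, where exons were skipped around it, of 822 bases. The other 4 snoRNA genes were intronic in all 7 models.

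The sequence of Gm23187 is shown with the box C/D-type snoRNA genes of the neighbouring introns (GENCODE M21 transcripts, GRCm38, plus strand). Capitals mark the first GATG within 15 bases of the start, the core of a box C, and the last CTGA within 15 bases of the end, a box D. Both were found in 4 of the 5 snoRNA genes of Nop56 (80%) and in 351 of all 1507 GENCODE snoRNA genes (23.3%). The exception was Gm24451, of 133 bases, in intron 5.
Snord110, intron 3, chr2:130275506-130275573: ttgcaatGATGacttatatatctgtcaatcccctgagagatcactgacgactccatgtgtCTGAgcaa
Gm23187, intron 8, chr2:130277195-130277280: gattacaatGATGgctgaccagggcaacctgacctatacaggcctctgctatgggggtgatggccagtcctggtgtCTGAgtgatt
Gm23650, intron 9, chr2:130277697-130277766: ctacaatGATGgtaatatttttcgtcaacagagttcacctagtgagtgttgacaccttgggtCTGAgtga
Snord57, intron 10, chr2:130278016-130278087: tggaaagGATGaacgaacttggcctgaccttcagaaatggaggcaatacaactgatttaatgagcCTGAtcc

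**Figure D4:**
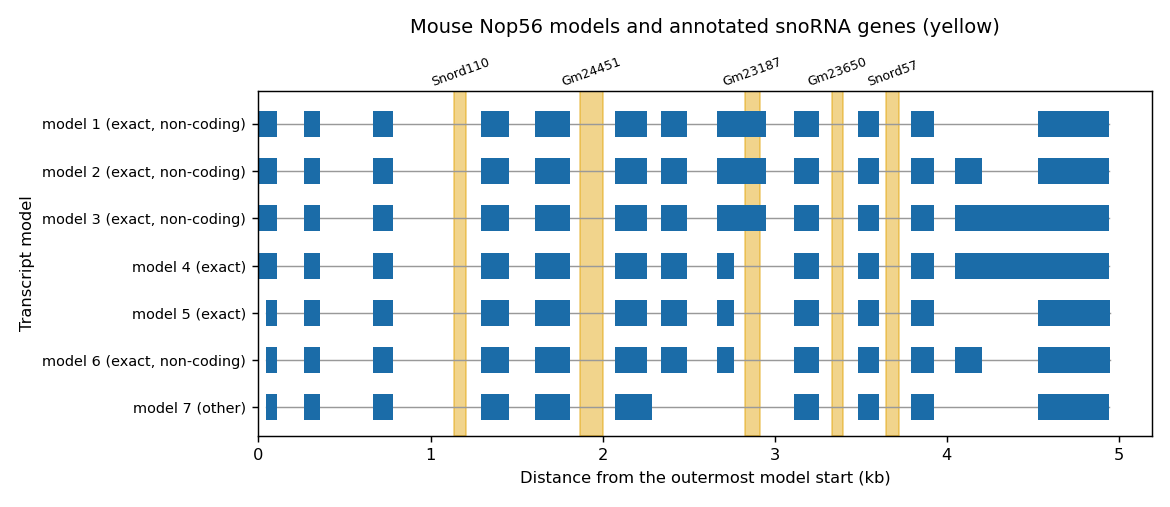
Exons (boxes) of the 7 mouse Nop56 models by distance in kb from the outermost model start, with the 5 annotated snoRNA genes as yellow bands. Gm23187 lies within an exon in models 1, 2 and 3, and the other 4 snoRNA genes lie between exons in all models.

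Hosts of snoRNA genes made up a larger share of the members than of all genes. Within sense models on the same strand lay 19 snoRNA genes of 6 members: 5 in Nop56, 4 in Nop58, 3 each in Ncl, Gnl3 and Wdr43, and 1 in Dkc1. That is 12% of members (4.53% to 24.3%), against a background of 2.27% of all named genes. Of the 19, 1 lay within an exon of a model (5.26%), against 105 of 471 over all named genes (22.3%). All named genes include snoRNA genes with models of their own, which can count as exons here. Their part in both backgrounds was not counted. No interval was computed for 1 of 19, so the lower exonic share is no result about the members. Some intronic snoRNAs also appeared as unspliced models of their own. In mouse, a 116-base model of Snora75 lay in intron 12 of Ncl and a 63-base model of Snord11 in intron 10 of Nop58. In bovine, models named only by locus numbers lay in the same intron as a mouse snoRNA gene. One of 134 bases lay in intron 12 of NCL, and those of 85 and 78 bases in introns 4 and 9 of WDR43 had the lengths of mouse Snord92 and Snord53 in the same introns of Wdr43. Another of 253 bases lay in intron 5 of NOP56, where the mouse gene holds Gm24451. SnoRNAs usually lack a poly(A) tail, and how these molecules entered the libraries was not tested.

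Proteins of the box H/ACA particles, which guide pseudouridylation, had 12 models in mouse and 8 in bovine. Dkc1, the pseudouridine synthase dyskerin, had 3 models in mouse and 1 in bovine, and Nhp2 likewise had 3 in mouse and 1 in bovine. Nop10 had 1 in each, with 738 bases in mouse and 2519 in bovine, where the last exon was 2415 bases long. Gar1 had 5 models in each library but of different kinds. In mouse 2 were exact matches of 7 exons, and 3 others of 3 or 6 exons skipped 1 or more internal exons. In bovine all 5 were exact matches of 7 exons, which differed in the donor of the first exon and in the start, from 165 bases upstream of the chosen reference form to 232 bases downstream of its start. All 3 Dkc1 models in mouse were exact matches and differed at exon 2, of 82 bases, and in the acceptor of intron 3, by 48 bases. Nhp2 skipped its 106-base exon 3 in 1 mouse model and kept its 104-base intron 1 in another, which matched a non-coding reference.

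Nucleolar chaperones, a GTPase and a helicase made up a group of 5 genes with 13 models in mouse and 15 in bovine. Ncl, nucleolin, and Ddx21, a helicase of the nucleolus, had 1 model in each library, an exact match. Gnl3, the GTPase nucleostemin, had 4 in each. Nolc1, the snoRNP chaperone Nopp140, had 4 in mouse and 3 in bovine. Npm1, the chaperone nucleophosmin, had 3 in mouse and 6 in bovine. Npm1 has many processed copies in mammalian genomes, and how reads that fit several places were handled is not given in the sources used here.

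Npm1 (minus strand, chromosome 11, 33152498 to 33163206 in mouse; plus strand, chromosome 20, 3205464 to 3218379 in bovine) had a long and a short form in both libraries, matching its known splice variants with different last exons. In mouse the exact match of 11 exons ended in an exon of 355 bases, and 2 models ended 2424 or 2427 bases earlier in a last exon of 299 or 296 bases inside intron 9. In bovine 5 models ended in an exon of 357 bases, and 1 model, an exact match of 10 exons, ended 3438 bases earlier in a last exon of 77 bases, also in intron 9. The other bovine models added a 115-base exon in intron 1, a 663-base exon in intron 9 or other acceptors of introns 2 and 9. None of the 4 models with these additions was an exact match.

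Small splice shifts recurred at the same intron in both species in Gnl3 and in Nolc1. In Gnl3 the donor of intron 5 had a choice 14 bases apart in mouse and 14 bases apart in bovine, a length that is not a multiple of 3. In each library 1 exact match of Gnl3 was to a reference transcript that RefSeq lists as non-coding. Such matches were found for 6 members in mouse (12%, background 9.78%), namely Nop56, Nhp2, Nop14, Gnl3, Nip7 and Wdr43, and for 1 in bovine, GNL3 (2%, background 6.11%). In Nolc1 the acceptor of intron 2 had a choice 3 bases apart in both species, and mouse Nolc1 also at intron 4. The 4 mouse models were exact matches that differed by these 3-base steps, with lengths of 3659, 3662 and 3665 bases. In bovine 2 of 3 NOLC1 models continued 32416 bases beyond the exact match, into a last exon of 31 bases, and 1 of them carries the class for a retained intron.

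Small subunit assembly factors were the largest group, with 34 models in mouse and 38 in bovine over 20 genes. They include parts of the processome that forms on the precursor RNA, and for 10 of them the number of models was equal in both libraries. Utp4 had 4 models in mouse and 2 in bovine. Emg1, a pseudouridine methyltransferase, and Wdr43 each had 3 in mouse and 2 in bovine. Imp4 had 2 in mouse and 3 in bovine. Heatr1, Nop14, Utp14a, Utp15 and Wdr75 had 2 in each, and Fcf1 had 2 in mouse and 1 in bovine. With 1 model in mouse and 2 in bovine stood Bysl, Ddx10, Rrp12 and Utp6. Ddx52, Imp3, Mphosph10, Utp3 and Utp18 had 1 in each, all exact matches, and Imp3 and Utp3 were unspliced in both.

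Several factors of this group kept an intron or had an early end. Imp4, which binds the U3 snoRNA, held intron 1 inside an exon in both species, at 113 bases in mouse and at 396 or 440 bases in bovine depending on the acceptor. The additional Utp4 models in mouse added a 162-base exon in intron 14 or began 73 bases inside the gene with a 260-base first exon. Emg1 kept a 69-base intron 4 in 1 mouse model. In bovine UTP6 the exact match held 572 bases in its last exon that the other model removed as an intron. Wdr43 gained an exon inside intron 11 in both libraries, of 89 bases in mouse and 99 bases in bovine. Heatr1 was the gene with the longest exact match among mouse members, with 45 exons and 6776 bases, and its other mouse model had 24 exons, the last of which reached into intron 24, 20515 bases before the end of the exact match. Its bovine exact match had 4 exons and 1070 bases, so its exact match covers fewer exons than the mouse one. Wdr75 likewise had a mouse model of 6 exons that reached into intron 6 and ended 17958 bases before the end of the exact match with 21 exons. Bovine UTP20 had 5 models on chromosome 5 (65182963 to 65269420): both models of 62 exons and the model of 30 exons spanned the gene, while models of 10 and 14 exons covered parts of it. The 10-exon model ended 78344 bases before the others, reaching into intron 10. The 14-exon model began 72246 bases after the start of the exact match, at exon 49. Its first exon of 283 bases reached 112 bases into intron 49.

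Large subunit assembly factors had 25 models in mouse and 24 in bovine over 11 genes. Wdr12 had 7 in mouse and 5 in bovine. Of its partners in the PeBoW complex, Pes1 had 1 in mouse and 3 in bovine, and Bop1 had 1 in each. Ddx56 had 3 in mouse and 2 in bovine, and Mrto4, a placeholder for a stalk protein of the subunit, had 3 in mouse and 1 in bovine. Nip7 and the methyltransferase gene Nop2 each had 2 in mouse and 3 in bovine, and Nop16 had 2 in each. Rrp1 had 2 in mouse and 1 in bovine, Ddx18 had 1 in mouse and 2 in bovine, and Rrp15 had 1 in each.

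Wdr12 (minus strand, chromosome 1, 60076081 to 60098500 in mouse; minus strand, chromosome 2, 91206409 to 91230356 in bovine) was the member of this group with the most forms in both libraries. Of the 7 mouse models 3 were exact matches. They used 5 separate first exons, of which the ones starting 3710 and 7200 bases inside the gene began models that were not exact matches. Mouse ends lay 787 bases apart in 1 last exon, and bovine ends 200 bases apart. In bovine 2 models had 2 exons, and 1 of these ended 21963 bases before the exact match. An intron of 150 or 203 bases, removed in some bovine models, lay inside the first exon of the exact match and of 1 other model. Mouse Mrto4 varied at 2 acceptors, by 3 bases at intron 7 and by 22 bases at intron 2. Nip7 kept its 93-base intron 2 in 1 mouse model, and an intron of 261 bases lay inside an exon in bovine. Ddx56 varied in mouse at the acceptor of intron 2 and had ends 1419 bases apart, while the bovine models differed at the acceptor of intron 5 by 114 bases.

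Over all 50 members, the share of genes with internal splicing variation was near that of other genes, while separate first exons were seen in fewer of them. Members' models had a median of 13 exons in mouse and 14 in bovine, against 7 in mouse and 6 in bovine over all sense models. These are shares of genes and not of exons, and the effect of exon number was not tested. A cassette exon was found in 12 members in mouse (24%, background 20.9%) and 13 in bovine (26%, background 24.1%). An alternative donor was found in 8 in mouse (16%, background 11.8%) and 4 in bovine (8%, background 12.3%). An alternative acceptor was found in 8 in mouse (16%, background 11.8%) and 10 in bovine (20%, background 12.2%). A whole intron inside an exon was found in 6 in mouse (12%, background 10.5%) and 7 in bovine (14%, background 9.77%). By the deposited classes for retained introns, m and n, the count was 2 in mouse (4%, background 5.8%), Emg1 and Imp4, and 4 in bovine (8%, background 5.52%), NOLC1, WDR12, UTP6 and IMP4. Separate first exons were found in 7 members in mouse (14%, 5.82% to 26.7%, background 23.7%) and 5 in bovine (10%, 3.33% to 21.8%, background 28.2%). Separate last exons were found in 6 in mouse (12%, background 14.6%) and 8 in bovine (16%, background 26%). Ends 200 bases or more apart in 1 last exon were found in 5 in mouse (10%, background 3.64%) and 4 in bovine (8%, background 8.37%). A skip of 2 or more exons at once was found in 1 in mouse (2%, background 4.73%) and 3 in bovine (6%, background 6.73%). Among genes with 2 or more models, first exons were separate in 7 of 28 members in mouse (25%, 10.7% to 44.9%, background 46.3%) and 5 of 32 in bovine (15.6%, 5.28% to 32.8%, background 48.8%). Last exons were separate in 6 of these 28 in mouse (background 28.6%) and 8 of 32 in bovine (25%, 11.5% to 43.4%, background 45%). The background for first exons lies above the counting interval in all of these except for the mouse share over all members.

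First exons outside the annotation, the feature at the centre of the study, were counted in each library against a different annotation. Among the 49 members with an exact match, 2 had a first exon that overlaps no annotated exon in mouse (4.08%, 0.498% to 14.0%, background 12.4%): Wdr12 and Fcf1, a PIN-domain nuclease of small subunit processing. In bovine, where exact matches of the same library stood in for the annotation, 3 of 49 had one (6.12%, 1.28% to 16.9%, background 17.1%): NOP2, POLR1B and NIP7. Counted against exact matches of the same library, as in bovine, the mouse number was 5 in place of 2. The mouse background of 12.4% lies within its interval, and the bovine one lies just above it. The mouse Fcf1 model began 7656 bases inside the gene, in a first exon of 575 bases in intron 4. The bovine NIP7 model began 877 bases upstream of the exact match, POLR1B 358 bases upstream, and NOP2 169 bases inside. Whether any of them lies in a transposable element was not analysed here.

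The exon layout of the members was largely the same in both species. Where both libraries had a spliced exact match, the chosen forms had equal exon numbers in 41 of 46 members (89.1%, 76.4% to 96.4%, background 75% of 5638 genes). The 5 with unequal numbers were Dkc1 (16 exons in mouse, 15 in bovine), Wdr12 (14 in mouse, 13 in bovine), Ddx18 (13 in mouse, 14 in bovine), Imp4 (9 in mouse, 10 in bovine) and Heatr1 (45 in mouse, 4 in bovine). Every internal exon had the same length in the same order in 13 of 45 members (28.9%, 16.4% to 44.3%, background 38.9%), among them Nop56, Rrn3, Polr1b and Polr1c. This call is harder to meet with more exons, and members' models had a median of 13 in mouse and 14 in bovine. Over all sense models the medians were 7 in mouse and 6 in bovine, and the effect of exon number was not tested. In total 447 internal exons had an equal-length partner, which is 80.4% of 556 in mouse and 86.8% of 515 in bovine, against 86.8% in mouse and 86.5% in bovine over all such genes. These totals include Heatr1, which had 43 internal exons in mouse, 2 in bovine and 1 of equal length. This gene lowers the mouse share, and the share without it was not computed.

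Many members shared their upstream region with a gene on the other strand. A model on the opposite strand that starts within 1000 bases upstream of a member's start was found for 20 members in mouse (40%, 26.4% to 54.8%, background 13.7%) and 17 in bovine (34%, 21.2% to 48.8%, background 16.3%). Genes with an exact match as a background gave 20 of 49 (40.8%, background 16.3%) in mouse and 17 of 49 (34.7%, background 20.1%) in bovine. With partners that are exact matches of 2 or more exons the counts were 15 in mouse (background 10.3%) and 13 in bovine (background 10.6%), and within 300 bases they were 18 in mouse (background 11%) and 14 in bovine (background 13.5%), settings chosen after seeing the data. The same named partner was found in both libraries for 13 of 50 members (26%, 14.6% to 40.3%), against 811 of 8466 genes with the same symbol (9.58%). These 13 are 65% of the mouse set and 76.5% of the bovine set. Gene order is a property of the genomes and not of the embryos; what the libraries add is that both genes of each pair were assembled. For all 44 members with an entry in the RefSeq promoter table, a model start equalled the RefSeq start to the base, against 61.1% of 10510 genes, and whether starts were taken over from the reference was not tested. These distances therefore cannot be told apart from those of the annotation.

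Distances between starts are given in bases. RNA polymerase I subunits stood opposite Ptcd3 (Polr1a, 280 bases between starts in mouse and 437 in bovine) and Yipf3 (Polr1c, 35 bases in mouse and 140 in bovine). Small subunit factors stood opposite Med20 (Bysl, 93 in mouse, 124 in bovine), Arel1 (Fcf1, 52 in mouse, 67 in bovine), Ccdc115 (Imp4, 157 in mouse, 108 in bovine), Mcee (Mphosph10, 386 in mouse, 726 in bovine), Ankra2 (Utp15, 84 in mouse, 1 in bovine), Mbtd1 (Utp18, 49 in mouse, 383 in bovine) and Chtf8 (Utp4, 47 in mouse, 46 in bovine). Large subunit factors stood opposite Hsf1, the heat shock factor (Bop1, 113 in mouse, 92 in bovine), Cog8 (Nip7, 140 in mouse, 233 in bovine), Higd2a (Nop16, 157 in mouse, 224 in bovine) and Carf (Wdr12, 84 in mouse, 160 in bovine). The median distance was 93 bases in mouse and 140 in bovine. No gene of the box C/D, box H/ACA or chaperone groups had the same named partner in both. These groups hold only 4, 4 and 5 genes, and the share over all same-symbol genes was 9.58%, so this absence is no result about them.

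**Figure D5:**
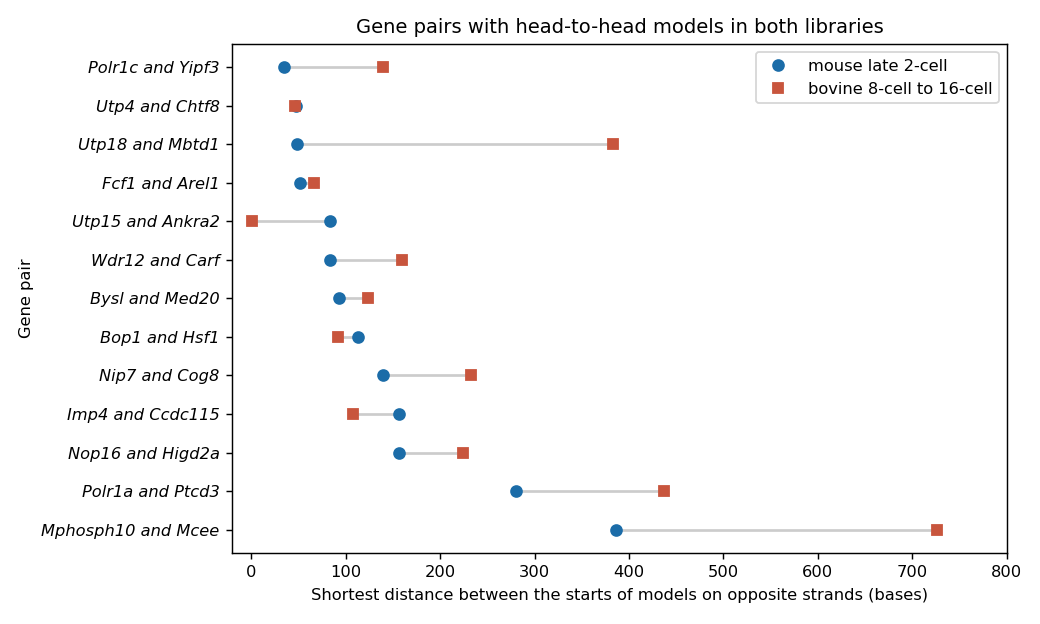
Shortest distance in bases between the starts of models on opposite strands for the 13 gene pairs found in both libraries, with circles for mouse and squares for bovine. Distances run from 35 to 386 bases in mouse and from 1 to 726 bases in bovine.

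The mouse promoters of Polr1c and Utp4, with partners 35 and 47 bases away, are shown because this spacing places the upstream region of both genes within the window (RefSeq, GRCm38.p6, 250 bases before to 50 after the start, on the member's strand). RefSeq promoters were found for 44 of the 50 members; Fbl, Fcf1, Rrp12, Npm1, Bop1 and Utp6 had no entry used here. Capitals mark the motifs searched on both strands: the E-box CACGTG and the ETS-type motif CCGGAAG, which reads CTTCCGG on the other strand. The motifs have no letters in common in these windows.
Polr1c, minus strand, chr17:46247996-46248295: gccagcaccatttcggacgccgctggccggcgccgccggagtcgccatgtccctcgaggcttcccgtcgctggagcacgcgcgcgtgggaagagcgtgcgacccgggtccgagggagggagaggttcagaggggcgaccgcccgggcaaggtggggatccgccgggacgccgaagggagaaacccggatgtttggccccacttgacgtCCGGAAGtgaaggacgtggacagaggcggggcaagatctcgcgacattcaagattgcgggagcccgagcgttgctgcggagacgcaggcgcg
Utp4, plus strand, chr8:106893390-106893689: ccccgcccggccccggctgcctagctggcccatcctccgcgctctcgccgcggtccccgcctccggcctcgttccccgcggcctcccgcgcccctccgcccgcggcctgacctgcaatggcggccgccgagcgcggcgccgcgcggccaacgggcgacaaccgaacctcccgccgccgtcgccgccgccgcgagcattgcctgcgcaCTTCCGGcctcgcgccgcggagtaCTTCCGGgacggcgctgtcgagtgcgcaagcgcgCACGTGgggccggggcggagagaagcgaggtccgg

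The ETS-type motif was present in 15 of 44 member promoters (34.1%), in 17.9% of the promoters of genes with a model and in 8.86% of all 32851 promoters. The E-box was present in 8 of 44 (18.2%), in 9.76% of promoters of genes with a model and in 7.15% of all. The sequence TATAAA, searched likewise on both strands, was present in 2 of 44 (4.55%), in 7.75% and in 13.6%. Nop2, Rrn3, Utp4 and Utp18 held both the E-box and the ETS-type motif. A match is a description of the letters in this window.

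A further 102 genes of the same pathway, outside the 50, were counted in the same way. Of these, 101 had a sense model in mouse (255 models, 2.52 per gene) and 102 in bovine (280 models, 2.75 per gene), against 53.5% of 21900 RefSeq protein-coding genes with a model in mouse. An exact match was present for 99 in mouse (background 72.5% of named genes with a sense model) and 88 in bovine (background 65.5%). The share of all bovine coding genes with a model was not available. This list, too, was chosen with earlier results of these data known, so its near-full presence is no result about these genes. The gene without a model was Dhx37, a helicase of small subunit assembly, in mouse, and at an unknown depth this does not show that it was absent.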

How the data were processed

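The deposited files hold the positions of transcript models and their exons, made from nanopore cDNA reads of 1 library per species. Per the file headers' source column the authors assembled them with StringTie, and attributes give a gene name and a class code against a reference; builds are mm10 and bosTau9 per the submitters' processing notes. For the aligner, versions and filters: not given in the sources used here. The positions are the only values, so depth and precision per gene are unknown.

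Computed here, with Python 3.11.15 and scipy 1.17.1, were models per gene (class codes = c k m n j o), splicing differences between models of a gene, model starts on the other strand within 1000 bases upstream, and 95% Clopper-Pearson intervals. The chosen form of a gene is its exact match with the most exons, coding ones first, or, without one, the model with the most exons. Model starts within 1 shared exon counted as 1, and ends counted as separate from 200 bases. Retained introns were taken in 2 ways: class m or n, and a whole intron of 1 model inside an exon of another. The mouse annotation was GENCODE M21. The event search was tested on simulated data. RefSeq tables (GRCm38.p6) gave promoters.

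Members and lists were chosen with earlier results of these data known. Every member was counted; those named had many models, no exact match, a retained intron, an unannotated first exon or a large difference between libraries. Wdr43, Wdr75, Heatr1 and Nop10 were described after their values were seen. Alternatives varied the classes, the exon minimum and the overlap, and for head-to-head models, after seeing the data, the window and the partner.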

Additional observations from a re-analysis of the deposited data

How the results depend on the processing

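No paired analysis was possible because each species has 1 library. Of 26 values recomputed under an alternative, 23 stayed within 1.5 times the count reported or within its interval, and 3 moved. Counting mouse members with a retained intron gave 2 by the deposited classes m and n and 5 when an exon had to span a whole intron of an exact match. Counting mouse members with an unannotated first exon gave 2 against GENCODE and 5 against exact matches of the library only. Asking for at least 2 models more in mouse than in bovine gave 8 members in place of 14. The cause was not tested. Both head-to-head settings added after seeing the data changed those counts by less than 1.5 times. Depth is unknown, so a form without a model may have been missed, and leaving out replicates was not possible with 1 library per species.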
